A study of Mus musculus with 24 samples.

Results

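Bile acid synthesis, transport and sensing were followed through 10 genes on the arrays: Cyp7a1, Cyp8b1, Cyp27a1 and Baat for synthesis, Slc10a1, Slc10a2 and Abcb11 for transport, and Nr1h4, Nr0b2 and Fgf15 for sensing. The members were chosen by gene name, as it stands on the array, out of 27962 names, and all 10 were found, on 13 probes. Cyp7a1, Baat and Slc10a2 had 2 probes each, and the probe with the higher mean intensity was taken as the main one. Colon and liver of 12 female C57BL/6 mice, 12 weeks old, were measured on 24 two-colour arrays. All dams received a Western-type diet rich in fat and poor in both selenium and folate (HF-low), from before mating until their pups were weaned. From then on 6 offspring stayed on it (HF-low-low), while 6 were moved to a diet of equal fat in which both nutrients were adequate (HF-low-suf). Before sampling, all mice were fasted and then re-fed. RNA came from whole tissue, so that fewer cells of a type and less RNA per cell cannot be told apart. Each value below is the log2 ratio of the sample (Cy3) to a pool of RNA of all mice (Cy5), so that 0 is the level of the pool. The labels name colon and liver as the tissues of the pool, and the study's methods name intestine and liver.

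Bile acids are made from cholesterol in hepatocytes, either by the classic route that Cyp7a1 opens or by the alternative route that starts with Cyp27a1, and are then joined to taurine or glycine by Baat. They leave the hepatocyte through the bile salt export pump Abcb11, are taken back up from the gut lumen by Slc10a2 and return from portal blood into the hepatocyte through Slc10a1. The bile acid receptor Nr1h4 (FXR) senses them and induces Nr0b2 (SHP) in the liver and the hormone Fgf15 in the ileum, both of which lower Cyp7a1.

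Shown here are 3 probes that carry the contrast between the tissues: a second probe of Cyp7a1, whose deposited position spans 607 bases for a 60-base oligonucleotide and so holds a gap of 547 bases, and probes of the uptake transporters of the hepatocyte and of the gut. They lie at chr4:6195632-6196238, chr12:78923269-78923328 and chr8:5065358-5065417, in that order, on the minus strand of mouse build mm7, as the array files give them.
Cyp7a1 probe A_51_P290981: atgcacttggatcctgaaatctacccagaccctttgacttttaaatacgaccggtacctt
Slc10a1 probe A_52_P69109: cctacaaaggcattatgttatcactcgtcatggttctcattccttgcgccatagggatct
Slc10a2 probe A_52_P61102: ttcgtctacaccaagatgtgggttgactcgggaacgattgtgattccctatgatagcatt

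The 250 bases before the start of Abcb11 and of Nr0b2, both known targets of Nr1h4 in the liver, are shown from RefSeq on build GRCm38.p6, since these genes are set against Nr1h4 over the livers below. They lie at chr2:69342617-69342866 on the minus strand and at chr4:133553126-133553375 on the plus strand. Capitals mark matches, on either strand, to an inverted repeat, AGGNCA and TGNCCT parted by 1 base, of the type bound by FXR with RXR, in Abcb11, and to TCAAGG, the core of the site of Nr5a2 (LRH-1), in Nr0b2.
Abcb11 promoter: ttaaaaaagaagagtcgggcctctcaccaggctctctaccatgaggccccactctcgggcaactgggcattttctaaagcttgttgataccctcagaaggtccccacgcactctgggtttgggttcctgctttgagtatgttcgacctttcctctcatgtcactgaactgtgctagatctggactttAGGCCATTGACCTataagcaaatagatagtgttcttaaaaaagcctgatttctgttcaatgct
Nr0b2 promoter: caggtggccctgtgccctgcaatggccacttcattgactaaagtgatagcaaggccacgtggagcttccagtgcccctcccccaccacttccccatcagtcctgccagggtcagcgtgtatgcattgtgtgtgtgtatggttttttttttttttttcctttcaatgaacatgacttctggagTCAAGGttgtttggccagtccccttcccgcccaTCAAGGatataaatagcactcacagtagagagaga
The inverted repeat began 63 bases before the start of Abcb11 and was held by 28 of 32851 windows of that length (0.0852%). The letters TCAAGG stood 68 and 35 bases before the start of Nr0b2 and were held by 12.5% of the windows. Of 8 windows of 7 members, 1 held the repeat and 1 held TCAAGG.

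By the means of marker lists the tissues matched their labels. The mean log2 ratio over 7 hepatocyte markers was 1.27 to 1.85 in liver and -4.35 to -3.95 in colon, and that over 8 colon epithelium markers was 0.17 to 1.14 in colon and -4.13 to -2.89 in liver. Of the latter markers Aqp8 went the other way, with a mean of 0.05 in liver and -2.98 in colon. An adipose list was at 1.11 to 3.22 in colon and, outside the liver of HF-low-suf replicate 1 (2.75), below 0 in liver. The liver of HF-low-suf replicate 2 had the highest skeletal muscle list among livers (-2.56). All 8 skeletal muscle markers lay below the pool in both tissues, with means of -4.97 to -2.26 in liver and -5.71 to -3.15 in colon, as did Lct (-4.21 and -4.46) and Reg3g (-6.30 and -5.26), all well above background on every array. Whether the pool held further tissue was not tested, and it enters the differences between tissues and diets on both sides. The arrays of colon HF-low-suf replicate 5 and liver HF-low-suf replicate 4 stood apart by a bright Cy5 channel, and the counts of members and of other pathway genes that differed between the tissues or diets were repeated without these arrays and without the mice of HF-low-suf replicates 1 and 2.

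Liver and colon were compared over the 12 mice, each of which gave both tissues. Of the 10 members, 8 were higher in liver and 1, Slc10a2, was higher in colon at an adjusted P below 0.05 (limma, mouse as a random block), against 19.3% of all 41174 probes higher in liver, 19% higher in colon and 38.3% in either direction. The shares were larger among the 19080 probes left by a filter on dim probes, where 6590 were higher in liver and 7158 in colon. In 7 members every liver lay above every colon and in Slc10a2 every colon lay above every liver, against 5.97% and 6.49% of all probes. The median difference of the members was 3.35 on the log2 scale, and that of all probes was 0.02. The number called was 9 of 10, or 8 of 10 where Nr1h4 was not called, in all 29 alternative treatments of the data, and without the arrays that stood apart the numbers that did not overlap were again 7 and 1.

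**Figure D1:**
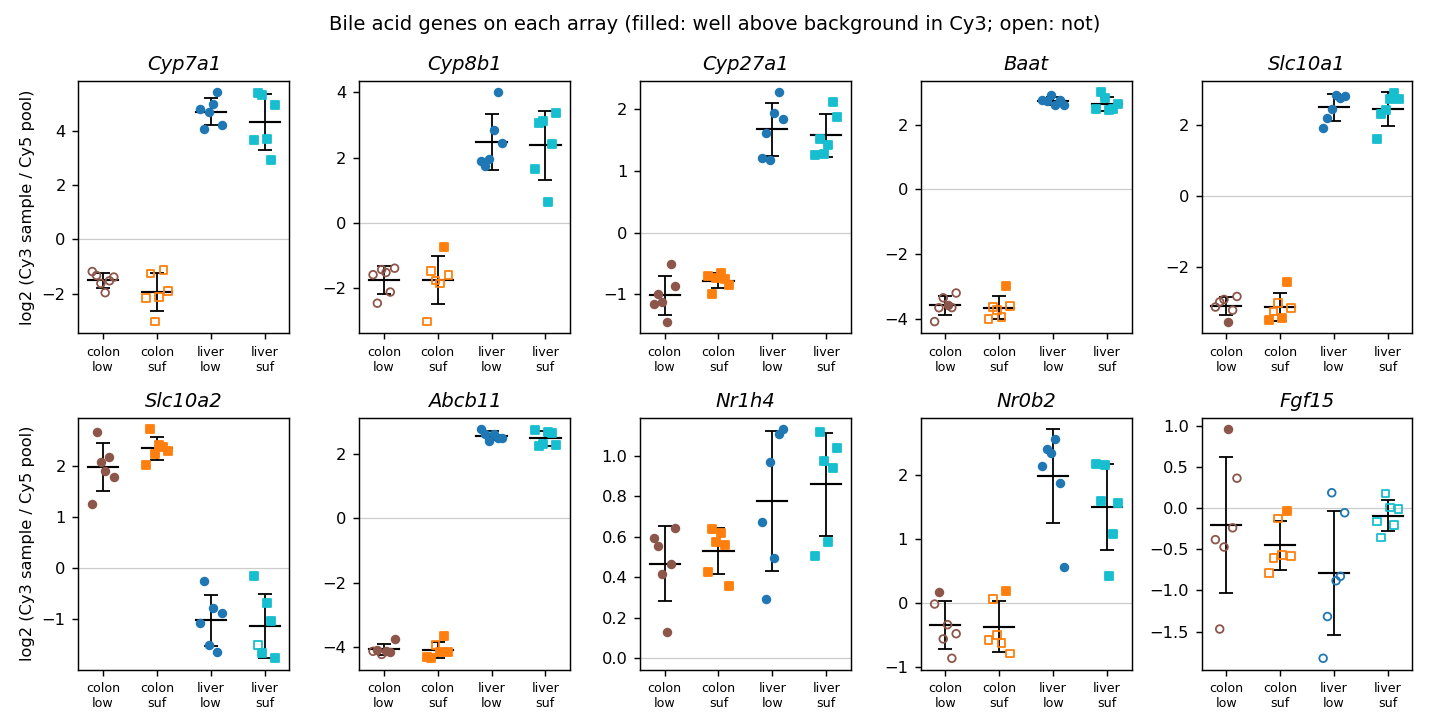
Log2 ratio of sample to reference pool (vertical axes) for the main probe of each member on all 24 arrays, in the groups colon HF-low-low, colon HF-low-suf, liver HF-low-low and liver HF-low-suf from left to right; each point is 1 mouse, the bars are means with SD (n = 6), and open points were not well above background in Cy3. The synthesis genes, Slc10a1, Abcb11 and Nr0b2 were higher in liver, Slc10a2 was higher in colon, the ranges of Nr1h4 overlapped, and the 2 diets overlapped in every panel.

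Cyp7a1, the rate-limiting enzyme of the classic route, was read by a probe at chr4:6193456-6193515 on the minus strand (mm7). In liver it ranged from 4.06 over a median of 4.74 to 5.41 in HF-low-low and from 2.94 over 4.32 to 5.38 in HF-low-suf. In colon it was not well above background on any of the 12 arrays. From the normalized Cy3 signals the liver level was at least 49.6-fold higher, a bound for this probe and normalization (adjusted p of the log2 ratios = 7.4e-18, limma). Its other probe, with the sequence shown, gave a difference of 3.80 ± 0.34 (SE), with 1 of 12 colons well above background. All 12 livers exceeded the colons on both probes, and the probes differed in the size of the difference.

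Cyp8b1, the sterol 12α-hydroxylase that sets the share of cholic acid, was read at chr9:121617140-121617199 on the minus strand. Its liver values ran from 1.74 over a median of 2.20 to 3.99 in HF-low-low and from 0.63 over 2.75 to 3.35 in HF-low-suf. The colon values lay between -3.03 and -0.74, with 1 of 12 arrays well above background, and the tissues differed by 4.18 ± 0.27 (SE). That size rests on dim colon signals and ran from 3.23 with median centring to 5.78 with the signals processed by Feature Extraction. Every liver was above every colon, and the lowest liver, 0.63, was HF-low-suf replicate 4.

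Cyp27a1, the mitochondrial sterol 27-hydroxylase of the alternative route, was well above background on all 24 arrays. It was read at chr1:74975310-74975369 on the plus strand. Its liver values were 1.18 to 2.27 with a mean of 1.62 ± 0.37 (SD, n = 12), and its colon values were -1.44 to -0.50 with a mean of -0.90 ± 0.26 (SD, n = 12). The liver level was 5.74-fold higher, with a log2 difference of 2.52 ± 0.12 (SE).

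Baat, which conjugates bile acids to amino acids, differed by 6.30 ± 0.11 (SE). Its 12 livers lay within 2.44 to 2.99 and its colons within -4.08 to -2.99, with 2 of 12 colons well above background. The size of the difference therefore rests on dim colon signals and ran from 5.87 with the Cy3 signal alone to 7.59 with the processed signals. The deposited position of its main probe covers 12 bases, chr4:49503287-49503298 on the minus strand. Its other probe, at chr4:49503875-49503934, was not well above background in any colon and was at least 17.1-fold higher in liver (adjusted p = 3.8e-19, limma).

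Among the transporters, the sodium-dependent uptake carriers of hepatocyte and gut ran in opposite directions. Slc10a1 (NTCP), the carrier of the hepatocyte, was 1.60 to 2.88 in liver and -3.53 to -2.43 in colon, a difference of 5.58 ± 0.14 (SE) with 4 of 12 colons well above background, which ran from 5.19 with median centring to 6.53 with the processed signals. Slc10a2 (ASBT), the apical carrier of the ileum, was 1.25 to 2.72 in colon and -1.76 to -0.16 in liver, a difference of -3.24 ± 0.17 (SE). Its main probe lies at chr8:5053054-5053113 on the minus strand and was well above background on 12 of 12 colons and 11 of 12 livers. Its other probe gave -2.74 ± 0.15 (SE), and over the 12 colons the probes followed each other (Pearson r = 0.879, a description over arrays that share their reference pool).

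Abcb11, which pumps bile salts into the canaliculus, was higher in liver by 6.59 ± 0.09 (SE). It was read at chr2:69168882-69168941 on the minus strand. Its livers lay between 2.22 and 2.75, and its colons between -4.34 and -3.65 with 9 of 12 well above background. The 12 livers spanned 1.45-fold from lowest to highest.

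Of the sensing members, the receptor Nr1h4 was well above background on all 24 arrays and was the member most alike in both tissues among those measured in both. It was read at chr10:89013326-89013385 on the minus strand, and was 0.29 to 1.13 in liver and 0.13 to 0.65 in colon, with overlapping ranges. The difference was 0.32 ± 0.10 (SE; adjusted p = 0.0086, limma), with the liver higher in 10 of 12 mice (exact sign-flip permutation test over the 12 mice, p = 0.00488). This call was lost with median centring (-0.05) and with the Cy3 signal alone (-0.06), under which the sign turned, and with each diet or each scan day taken on its own.

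Nr0b2, the repressor induced by Nr1h4, was 0.42 to 2.55 in liver and -0.86 to 0.19 in colon, where 2 of 12 arrays were well above background. It was read at chr4:132932212-132932271 on the plus strand, and the tissues differed by 2.09 ± 0.20 (SE). The size ran from 1.38 with median centring to 3.99 with the processed signals. Every liver was above every colon. Fgf15, the ileal hormone that reports bile acid uptake to the liver, was read at chr7:141325710-141325769 on the plus strand. It was well above background on 2 of 12 colons and on 0 of 12 livers, and no fold is given for it.

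In the sign-flip test over mice, the smallest p that 12 mice allow is 0.000488, and the 8 members whose tissues did not overlap reached it.

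The members differed in how much the liver arrays varied. The spread was taken as the SD within diets over the 12 livers, and was placed among the 9763 probes well above background on all of them, whose median SD was 0.26 on the log2 scale. Cyp8b1 had an SD of 0.96 (percentile 99) and spanned 10.3-fold between the lowest and the highest liver. Without the lowest liver, HF-low-suf replicate 4, the span was 5.04-fold. Cyp7a1 had an SD of 0.80 (percentile 98.2) and spanned 5.54-fold, or 3.36-fold without HF-low-suf replicate 5. Both enzymes stayed at or above percentile 94.6 under 5 other treatments of the data. The second probe of Cyp7a1 had an SD of 1.31 (percentile 99.6).

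Abcb11 had an SD of 0.19 (percentile 21.8) and stayed between percentile 13.3 and 33.5 under the other treatments. Baat had an SD of 0.18 (percentile 19.7) on its main probe, which moved between percentile 9.16 and 60.1, and one of 0.42 (percentile 84.5) on its other probe, so that its spread depended on the probe. Nr0b2 had an SD of 0.70 (percentile 97.1), of which the lowest livers were HF-low-suf replicate 4 (0.42) and HF-low-low replicate 6 (0.57). With median centring its percentile was 53.4, so its place depended on the normalization. Cyp27a1, Slc10a1 and Nr1h4 lay at percentiles 80.2, 84.8 and 62.6. With the Cy3 signal alone and with median centring, Cyp27a1 reached 97.8 and 95.3 and Slc10a1 96.5 and 97.1, within the range of Cyp7a1 and Cyp8b1. The spread of Slc10a1 and Cyp27a1 also moved with the scan day: all 6 livers of the first day (1.60 to 2.46) lay below all 6 of the second (2.73 to 2.88) for Slc10a1, and within diet and scan day their percentiles were 56.1 and 52.5.

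**Figure D2:**
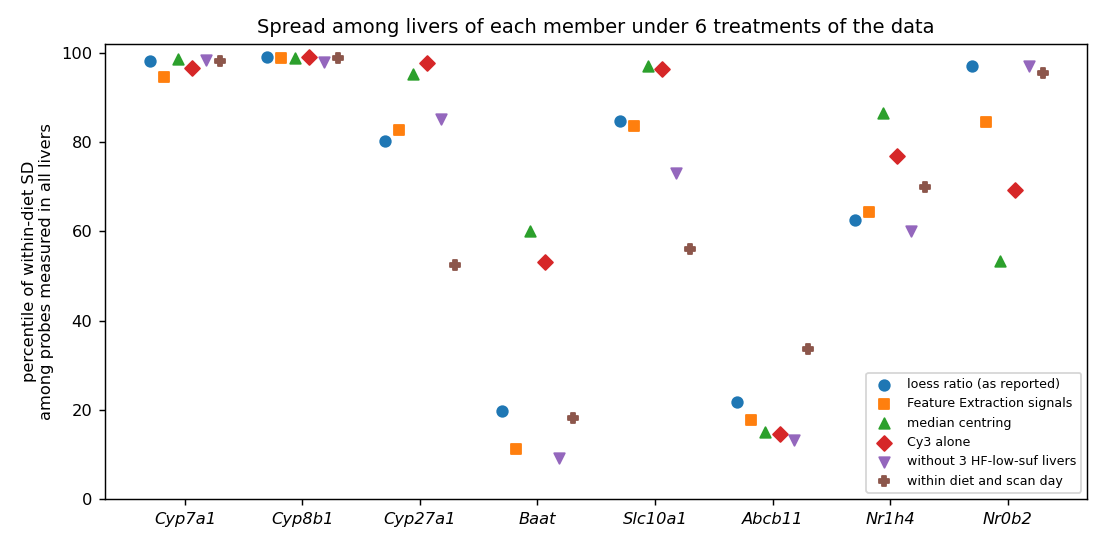
Percentile of each member's SD within diets over the livers (vertical axis, percent) among the 9763 probes well above background in all 12, under 6 treatments of the data; the fifth leaves out HF-low-suf replicates 1, 2 and 4, and the last takes the SD within diet and scan day. Cyp7a1 and Cyp8b1 stayed at or above percentile 94.6 and Abcb11 at or below 33.5, while Baat and Nr0b2 moved with the normalization, and Cyp27a1 and Slc10a1 with both the normalization and the scan day.

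Relations between members were computed for 8 pairs over the 12 livers, with Benjamini-Hochberg adjustment over the pairs. Cyp7a1 and Cyp8b1 ran in the same direction, with Pearson r = 0.669 (permutation p = 0.0172, adjusted 0.0687) and Spearman rho = 0.797 (permutation p = 0.00267, adjusted 0.0214). With the 2 livers of most extreme Cyp7a1 left out r was 0.869. Within the diets r was 0.768 in HF-low-low and 0.664 in HF-low-suf, and within the scan days it was 0.874 and 0.687 (n = 6 each, no test). This pair passed the adjustment by rank and not by Pearson's r.

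Nr1h4 and its target Abcb11 ran against each other, with r = -0.709 (permutation p = 0.0115, adjusted 0.0687) and rho = -0.678 (adjusted 0.0736). With the 2 livers of most extreme Nr1h4 left out r was -0.771, and within the scan days it was -0.827 and -0.625 (n = 6 each, no test). Neither measure passed the adjustment, and with median centring of the arrays r turned to 0.643. For the same receptor and Nr0b2 r was -0.358 (permutation p = 0.252, adjusted 0.425).

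The remaining 5 pairs had r between -0.347 and 0.431 and adjusted p of 0.425 or more. Cyp7a1 and its repressor Nr0b2 had r = 0.431, and Cyp7a1 and Dbp, a clock output factor that activates it, had r = -0.347. Of the 8 pairs, 4 had opposite signs on the 2 scan days (n = 6 each, no test). These were Nr0b2 with Cyp7a1 (-0.577 and 0.675) and with Cyp8b1 (-0.669 and 0.688), Slc10a1 with Abcb11 (-0.833 and 0.485) and Cyp7a1 with Cyp27a1 (-0.042 and 0.304).

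**Figure D3:**
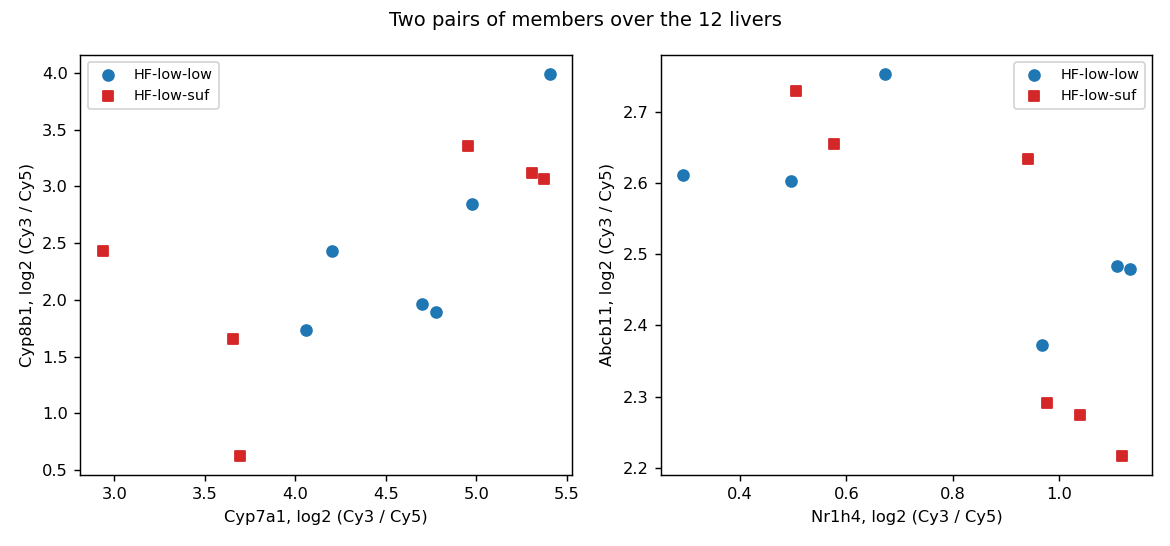
Log2 ratio of Cyp8b1 against Cyp7a1 (left) and of Abcb11 against Nr1h4 (right) in the 12 livers; each point is 1 mouse, blue circles are HF-low-low and red squares HF-low-suf. Cyp8b1 was higher where Cyp7a1 was higher (r = 0.669), and Abcb11 was lower where Nr1h4 was higher (r = -0.709), neither past adjustment by Pearson's r.

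Among 7845 genes measured in all livers, those whose pattern over the 12 livers was most like that of Cyp7a1 were Akr1d1 (r = 0.911), Zfp336, AW209491, Mccc2 and AU021838. Akr1d1 is the 5β-reductase of bile acid synthesis, a gene of the same route. For Cyp8b1 they were Ahr (r = 0.928), BC003331, H2afx, Ptdsr and Caml, and for Nr0b2 they were Pir (r = 0.940), Qpctl, 3830422K02Rik, Dntt and Ly96. These genes were picked for the size of r, which is therefore a description over 12 livers that share a reference pool.

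The diets were compared within each tissue to ask whether adequate selenium and folate after weaning altered these genes. No member passed the threshold of P below 0.01 with a fold above 1.5 in either tissue, where 0.117% of all probes did so in liver and 0.168% in colon. No probe on the array passed an adjusted P of 0.05 in either tissue (limma), and 877 probes in liver (2.13%) and 1228 in colon (2.98%) had an unadjusted P below 0.05, among them 1 member probe in each tissue. These were Fgf15 in liver and the second probe of Baat in colon, and neither was well above background on any array of that tissue. In the direction that the dyes give, differences are HF-low-suf minus HF-low-low. For nearly all genes in the study's supplementary lists, its published changes run the other way. The cause was not tested, and the signs of the diet differences below are those of the labels and dyes. The diets overlapped in all 9 members measured in liver and all 4 measured in colon, where measured means well above background on 6 or more arrays of the 12.

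In liver Nr0b2 had a median of 2.24 in HF-low-low and 1.58 in HF-low-suf, with a difference of -0.48 (95% interval -1.24 to 0.27, exact permutation p = 0.260). Cyp7a1 differed by -0.37 (95% interval -1.23 to 0.49, exact permutation p = 0.455) and Cyp8b1 by -0.10 (95% interval -1.12 to 0.91, exact permutation p = 0.859). Within the scan days, with 3 livers per diet on each, Cyp7a1 differed by 0.27 and -1.001 and Cyp8b1 by 0.75 and -0.95, while Nr0b2 was lower on both (-0.32 and -0.65). The intervals of these 3 and of Slc10a2 (-0.74 to 0.52) reached past a 1.5-fold change, which is 0.585 on this scale, so that such a change was not excluded.

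For the main probes of the other 5 members measured in liver the whole 95% interval lay within a 1.5-fold change in either direction, which held for 2 to 5 of them under the alternatives that did not leave out a single array. Baat differed by -0.09 (-0.37 to 0.19), while its second probe, well above background on all 12 livers, gave -0.25 (-0.74 to 0.24) and so reached past that change. Abcb11 differed by -0.08 (-0.37 to 0.20) and Nr1h4 by 0.08 (-0.29 to 0.46). Cyp27a1 differed by -0.10 (-0.55 to 0.35) and Slc10a1 by -0.05 (-0.54 to 0.44). Fgf15 was not well above background in any liver; its unadjusted limma p was 0.0278 and its exact permutation p 0.0519, and no fold is given.

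In colon Slc10a2 ranged from 1.25 over a median of 1.99 to 2.67 in HF-low-low and from 2.02 over 2.34 to 2.72 in HF-low-suf. The difference was 0.36 (95% interval -0.06 to 0.79, exact permutation p = 0.119), and its other probe gave 0.33 (-0.04 to 0.70, exact permutation p = 0.0996). Within the scan days the main probe differed by 0.32 and 0.40. On each of the 6 slides, which carried 1 array of every group, HF-low-suf was higher, by 0.05 to 0.76 on the main probe and by 0.10 to 0.72 on the other (exact sign-flip test over the slides, unadjusted p = 0.0312 for each, the smallest that 6 slides allow). That test was not among the planned ones, and the 2 probes read 1 gene in the same mice. Deviations of same-slide colons correlated only at -0.085 to 0.24, so the slide pairs them weakly. On the same colons all 7 adipose markers had lower means in HF-low-suf, with log2 differences of -0.71 (Plin1) to -0.13 (Lep) of which 0 passed the threshold for diets, and with a mean of the list of 1.11 to 2.86 against 2.22 to 3.22 in HF-low-low. Of the 8 colon epithelium markers 5 had higher means, Muc2 most (0.48, not past the threshold). Aqp8 (-0.85, not past the threshold), Lgals4 (-0.07) and Krt20 (-0.05) were lower. The mean of this list was 0.41 to 1.02 in HF-low-suf against 0.17 to 1.14 in HF-low-low. The part of these in the Slc10a2 difference was not tested. No other member measured in colon, and 0 of the 9 measured in liver, had the same sign on all 6 slides on its main probe, against 2.71% of all probes in colon and 2.43% in liver. Cyp27a1 differed by 0.24 (-0.09 to 0.56, exact permutation p = 0.117), Nr1h4 by 0.06 (-0.21 to 0.33) and Abcb11 by -0.01 (-0.32 to 0.30). The intervals of the last 3 excluded a 1.5-fold change, and that of Slc10a2 reached past it upwards. Under such alternatives 2 or 3 of the 4 excluded it, with that of Cyp27a1 lost in part of them, and 0 with median centring. The other 6 members were well above background on fewer than 6 colons, and their diet differences are not given.

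**Figure D4:**
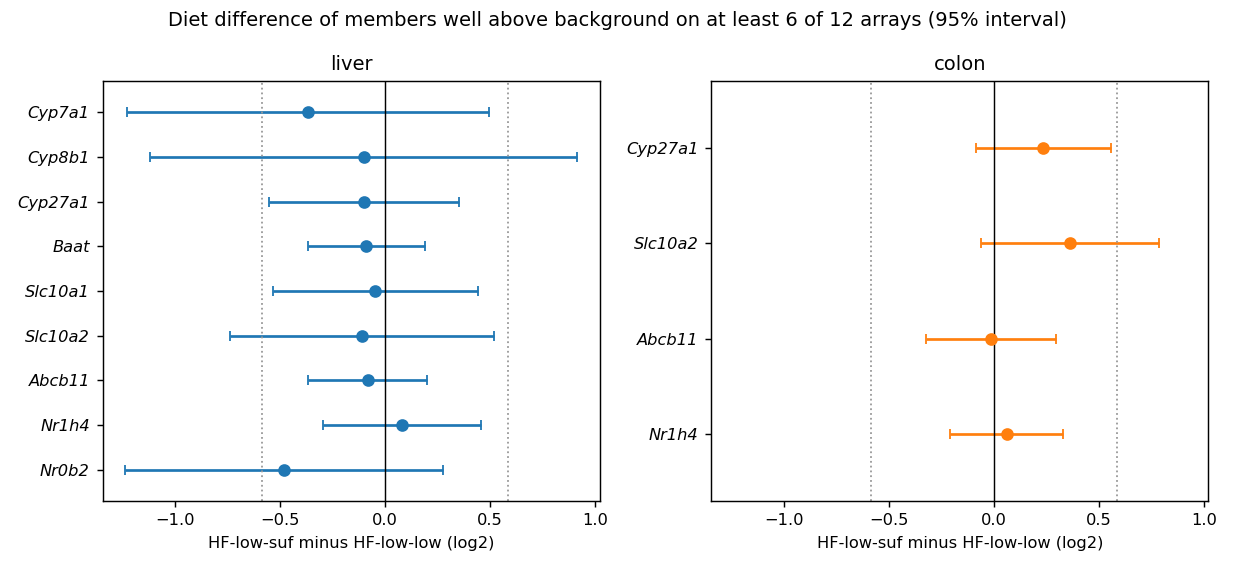
HF-low-suf minus HF-low-low on the log2 scale (horizontal axes) with the 95% interval for the 9 members measured in liver and the 4 measured in colon, from limma with 6 arrays per diet; dotted lines mark a 1.5-fold change. Every interval holds 0, and in liver those of Cyp7a1, Cyp8b1, Slc10a2 and Nr0b2 reach past the dotted lines.

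The diet difference in liver minus that in colon was also tested. No member and no probe passed an adjusted P of 0.05 (limma), with 6.43% of all probes at an unadjusted P below 0.05. Among the 13 member probes that unadjusted level was passed by Fgf15, which was near background in both tissues, and by the second probe of Baat, which was not well above background in any colon. Their adjusted p were 0.722 and 0.598 (limma). The main probe of Baat did not pass it.

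The other genes of the pathway were taken from a list of 60 symbols, of which 57 had a probe. Of these, 40 were higher in liver, 10 were higher in colon and 7 passed in neither direction, against 19.3% and 19% of all probes, and the median difference was 1.47, against 0.02 for all probes. With dim probes filtered out, 6590 of 19080 probes were higher in liver and 7158 in colon. Without the 2 arrays of bright Cy5, 40 were higher in liver and 9 in colon. None passed the diet threshold in either tissue, and none had an unadjusted P below 0.05 there (limma). Among 19 synthesis genes 17 were higher in liver and 1 in colon, among 18 transport genes 12 and 5, and among 20 genes of sensing and control 11 and 4, with the same shares of all probes as background.

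Among the genes higher in liver, 5 of those named by the size of their difference were well above background on all 24 arrays. The fatty acid binding protein Fabp1 differed by 8.23 ± 0.19 (SE), the bile acid CoA ligase Slc27a5 by 6.56 ± 0.09 and its relative Slc27a2 by 6.33 ± 0.10. Cyp2c70, which makes muricholic acids in mice, differed by 5.73 ± 0.11 and the peroxisomal oxidase Acox2 by 4.82 ± 0.10. The remaining 3 were near background in colon, so that the size of their difference rests on dim signals and is not ranked. The hydroxysteroid dehydrogenase Akr1c6 (8.89 ± 0.14) was well above background on 1 of 12 colons, and the organic anion carrier Slco1b2 (8.34 ± 0.16) and the canalicular pump Abcc2 (4.42 ± 0.13) on 2 of 12 each.

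The genes higher in colon held the partners of Slc10a2 in enterocyte transport. Slc51a and Slc51b, the subunits of the basolateral exporter OSTα-OSTβ, differed by -4.40 ± 0.21 (SE) and -2.95 ± 0.16, with Slc51a well above background on 2 of 12 livers and Slc51b on all 12. Fabp6, the ileal bile acid binding protein, was well above background in 12 of 12 colons and in 0 of 12 livers, and was higher in colon (adjusted p = 7.0e-09, limma), with no fold given. The pump Abcb1a, also well above background in 12 colons and 0 livers, was at least 6.98-fold higher in colon (adjusted p = 1.5e-14, limma), and the flippase Atp8b1 differed by -1.86 ± 0.17.

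The vitamin D receptor Vdr, which also binds lithocholic acid, differed by -4.13 ± 0.15 (SE). The factor Gata6 differed by -1.21 ± 0.08 and the coactivator Ppargc1a by -1.08 ± 0.16. A list of ileum and small intestine markers, which holds Fabp6, had a mean log2 ratio of -2.86 to -1.54 in colon and -2.99 to -1.78 in liver. Its members went both ways. Mep1a (0.70 in colon, -3.73 in liver), Fabp6, Alpi and Reg3g were higher in colon. Apoa4 (-3.63 in colon, 2.06 in liver) and Treh were higher in liver, and Lct passed in neither direction. The part of these markers in the colon levels of Slc10a2 and its partners was not tested. The receptor complex of Fgf15 in hepatocytes, Fgfr4 and Klb, was higher in liver by 1.55 ± 0.09 and 2.05 ± 0.16.

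**Figure D5:**
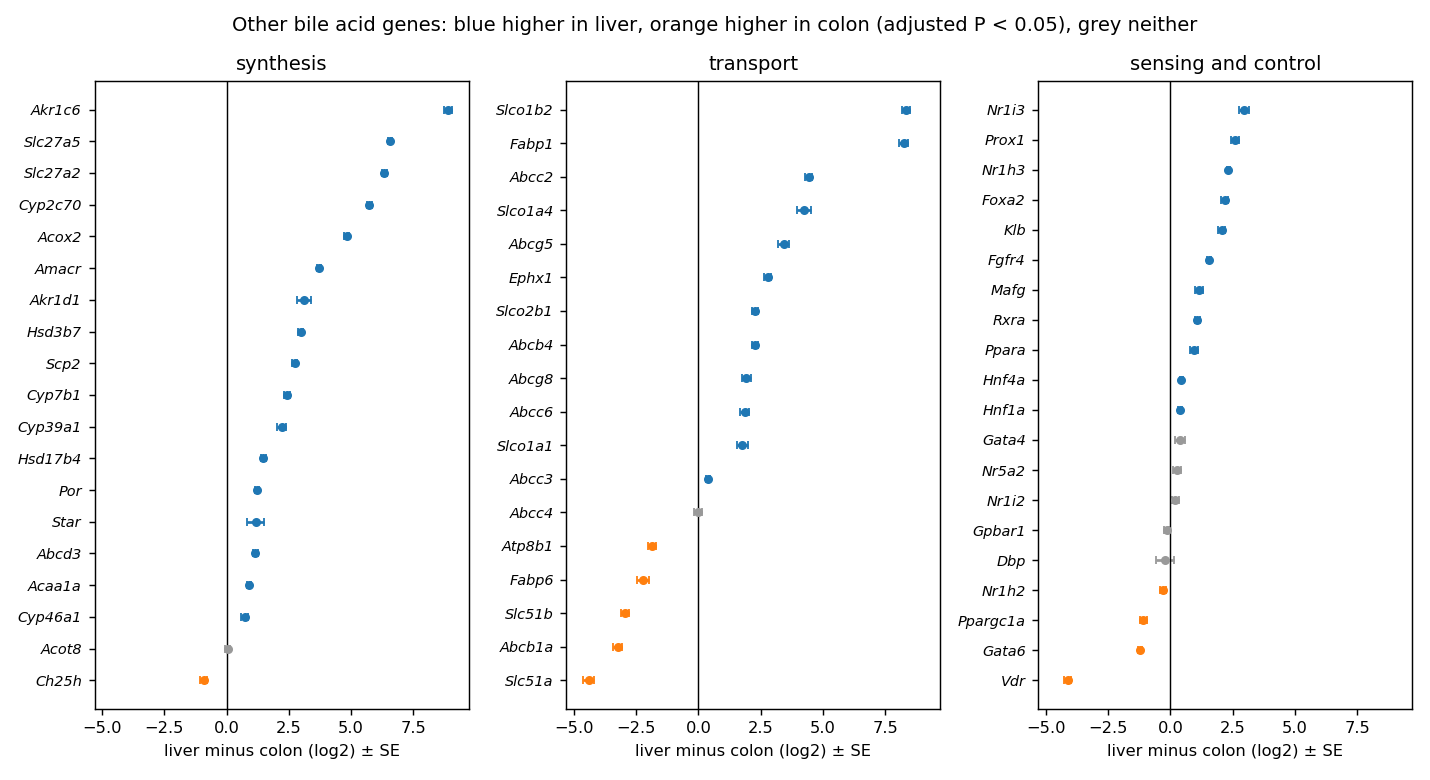
Liver minus colon on the log2 scale (horizontal axes, with SE) for the 57 other genes of bile acid synthesis, transport and sensing and control, each from its brightest probe over 24 arrays; blue genes were higher in liver and orange genes higher in colon at an adjusted P below 0.05. Synthesis genes lay almost wholly on the liver side, whereas Slc51a, Slc51b, Fabp6, Abcb1a, Atp8b1 and Vdr lay on the colon side.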

How the data were processed

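Gene expression was measured in colon and liver of 12 mice on 24 two-colour arrays, 6 per tissue and diet, on 6 slides that each carried 1 array of every group and were scanned on 2 days. The intensity values deposited by the authors are the mean signal of each spot and the median of its local background in Cy3 (sample) and Cy5 (reference pool), read by Feature Extraction 9.5.3.1 and not normalized; the software's own processed signals served as an alternative. The deposited log ratios were not used. The dyes were not swapped.

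The background was removed by normexp with an offset of 50, followed by loess within each array (limma 3.58.1, R 4.3.3). Left out were 1639 control spots of 45018 and spots flagged as outliers, which left 41174 probes. Liver was compared with colon in 1 fit in which the mouse entered as a random effect (statmod 1.5.0, correlation 0.158), since both tissues came from the same mice, as their descriptions state. Diets were compared within each tissue on 12 arrays. Probabilities were adjusted over all probes by Benjamini-Hochberg, and the threshold for diets was the study's own (P below 0.01, fold above 1.5). Single members were also tested by two-sided exact permutation, over 924 assignments for diets and 4096 sign flips for tissues, and pairs of members by 100000 resamples in numpy 2.4.6. Groups of arrays share the pool, so a level is relative to it and is not compared between probes.

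A probe was called well above background as Feature Extraction marked it in Cy3. Where no array of a tissue was, only a lower bound of the fold is given, from normalized Cy3 signals against the dimmest signal well above background on each array. Such a bound holds for its probe and this normalization, and the adjusted p beside it tests the log2 ratios and not the bound. The median Cy3 signal was 3.77 to 7.22 times and the median Cy5 signal 5.43 to 18.2 times the background, and 26.1% to 71.9% of spots were well above it. No member spot was saturated or flagged. On simulated data the fits found most of the changes put in. For diets those were larger than a 1.5-fold change, so the power for a change of that size was not tested.

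Positions of probes follow the array files (mm7), with no exon annotation of that build used here. Promoter sequences are those of a RefSeq table (GRCm38.p6), which held 7 of the 10 members. All members and all their probes are described. Named from the list of other genes were the 8 with the largest difference in each direction, besides Fgfr4 and Klb, added with their values known. The members and the lists were chosen with earlier results of these data known.

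Alternatives were other background corrections and normalizations, the Cy3 channel alone, outlier spots kept, a filter on dim probes, scan day or slide as a block, each scan day or diet alone, other probes, all arrays in 1 fit, and leaving out each array or mouse. The alternatives without the arrays that stood apart, and those for the spread among livers, were chosen after seeing the data. For a value without a call, a change of sign counted as a reversal only if the shift exceeded 1 SE (for correlations, 0.3).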

Additional observations from a re-analysis of the deposited data

Results flagged for a closer look

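Of 40 groups of 6 arrays, 2 held an array farther from the others than expected for its group, where chance flags about 1 in 20. In liver HF-low-low the Nr0b2 value of replicate 6 was 0.57, against a group median of 2.24 and a next lowest value of 1.87. In colon HF-low-low the Abcb11 value of replicate 6 was -3.74, against a group median of -4.13 and a next highest value of -4.07.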

How the results depend on the processing

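For liver against colon, all alternatives called 8 or 9 of the 10 members, and the direction of every member but Nr1h4 and the dim Fgf15 was kept. Nr1h4 turned to -0.047 with median centring and to -0.057 with the Cy3 signal alone, and was not called within either scan day or diet. Sizes depended on the normalization, also for Cyp7a1, for which only a lower bound is given. The signals processed by Feature Extraction, which shifted the median of all probes to -0.19, gave 5.78 for Cyp8b1, 7.59 for Baat and 3.99 for Nr0b2. Median centring gave 3.23, 5.92 and 1.38 for these in turn. Abcb11 had 6.59 as reported and 7.13 with the processed signals. The sizes of Cyp8b1, Baat and Nr0b2 rest on dim colon signals, so the order of sizes is not given. For the diets, 0 members were called in colon and in the difference between tissues under any alternative. In liver 0 to 1 were called with 1 array left out, the 1 being Fgf15 (without HF-low-low replicate 3 or 6), which no liver array held well above background, and 0 otherwise. Diet values that turned were those of Cyp7a1 (0.27) and Cyp8b1 (0.75) in liver within the first scan day, Slc10a1 in liver without HF-low-suf replicates 1 and 2 (0.20) and Abcb11 in colon with median centring (0.15). The mouse as a fixed replicate block and the slide as a block (replicate number) each called 9 members for the tissues, and the slide block called 0 for each diet comparison. Same-numbered livers of the 2 diets, which share a slide, had correlations of their deviations of -0.50 to 0.53, and same-numbered colons had -0.085 to 0.24, so the number does not pair them. The sign-flip test over slides given for Slc10a2 in colon relies on that number, and the permutation test of the diets does not. Over all probes the diet calls ranged from 2 to 304 in liver and from 3 to 278 in colon (48 and 69 as reported), the tissue calls from 11516 to 19531, and the share of tissue calls higher in liver was 50.5% as reported, 32.9% with median centring and 38.8% with the processed signals.

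Of the relations over livers, 0 pairs passed adjustment by Pearson's r as reported and 2 with median centring, where Cyp7a1 with Cyp8b1 had r = 0.770 and Slc10a1 with Abcb11 turned to 0.833; Cyp7a1 with Cyp27a1 turned to 0.364 and Nr1h4 with Abcb11 to 0.643 there. Cyp7a1 with Nr0b2 turned to -0.371 with the processed signals, and Cyp8b1 with Nr0b2 to -0.199 without liver HF-low-suf replicate 4. The causes of these changes were not tested. Leaving out arrays kept the correlation within mice estimated from all 24. The precision is limited by 6 mice per group and, for colon levels of 6 members below background on most arrays, by the signal over background.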
